A study of Mus musculus with 2 samples.

Results

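Keratin messages of the intestinal epithelium were followed in cultured mouse crypts for 6 genes, Krt7, Krt8, Krt18, Krt19, Krt20 and Krt23, chosen by name and all present in both count tables, which hold 18309 genes together. The tables also list 26 other keratin genes. The material was 2 Drop-seq libraries of C57BL6 mouse small intestine, age 10 weeks, in which crypts grew together with intestinal fibroblasts in Organoid Growth Media. The Ptger4-OFF library came from cultures given ONO-AE3-208, an antagonist of the prostaglandin E2 receptor EP4 that the gene Ptger4 encodes, at 10 µM every second day, and its epithelium grew as budding organoids. The Ptger4-ON library came from cultures given the DMSO vehicle, and its epithelium grew as spheroids. Each library was a pool of 6 cultures, so the 6 cultures of a condition cannot be separated, both conditions hold fibroblasts beside the epithelium, and the comparison has 1 library on each side and no replicate error. No test between conditions was possible, and the 95% intervals given here cover counting error only.

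Keratins are the intermediate filament proteins of epithelia, and a filament is built from pairs of 1 type II and 1 type I chain. Krt8 and Krt7 are type II, and Krt18, Krt19, Krt20 and Krt23 are type I. Krt8, Krt18 and Krt19 form the basic filament set of simple epithelia, Krt20 is known as a keratin of differentiated gut epithelial cells on the villus, Krt7 is better known from ductal and glandular epithelia, and Krt23 is a less studied type I keratin. The filaments anchor to desmosomes and hemidesmosomes and are reorganised when epithelial cells migrate or are injured.

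The type II genes and Krt18 lie on mouse chromosome 15, and the other type I genes lie on chromosome 11 (build GRCm38, gene annotation of that build). Krt8, on the minus strand at chr15:101996698-102004482 with 9 exons, and Krt18, on the plus strand at chr15:102028180-102032027 with 7 exons, are neighbours with 23697 bases between them. Krt7 has 9 exons on the plus strand at chr15:101411043-101430313. Krt19 has 6 exons at chr11:100140810-100148665, Krt20 has 8 exons at chr11:99428403-99438150 and Krt23 has 8 exons at chr11:99477974-99493137, all on the minus strand. Krt7 overlaps the antisense gene Gm671, Krt8 overlaps the lincRNA Gm36026, and a pseudogene named Krt8-ps is annotated. Strand use in counting is not given in the sources used here, so the counts of Krt7 and Krt8 are uncertain to the extent that such reads were assigned to them.

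RefSeq promoter entries (GRCm38.p6, 250 bases before to 50 after the start) were found for 5 of the 6 genes, all but Krt19. The promoters of Krt8, Krt18 and Krt20 are shown because Krt8 and Krt18 make the basic filament pair and had unlike levels in Fabp1 cells, and because Krt20 differed most between cell states. They are written 5′ to 3′ on the gene's own strand, from chr15:102004293-102004592 (minus), chr15:102027966-102028265 (plus) and chr11:99438104-99438403 (minus). Capitals mark TATAAA and GGAATG on either strand, the core of the TATA box and a core of the motif that TEAD factors bind.
Krt8: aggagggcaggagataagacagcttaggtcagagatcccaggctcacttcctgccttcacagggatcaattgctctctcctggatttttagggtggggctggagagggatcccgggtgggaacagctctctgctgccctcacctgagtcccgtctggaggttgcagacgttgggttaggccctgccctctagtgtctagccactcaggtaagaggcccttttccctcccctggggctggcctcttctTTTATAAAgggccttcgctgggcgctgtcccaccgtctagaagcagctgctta
Krt18: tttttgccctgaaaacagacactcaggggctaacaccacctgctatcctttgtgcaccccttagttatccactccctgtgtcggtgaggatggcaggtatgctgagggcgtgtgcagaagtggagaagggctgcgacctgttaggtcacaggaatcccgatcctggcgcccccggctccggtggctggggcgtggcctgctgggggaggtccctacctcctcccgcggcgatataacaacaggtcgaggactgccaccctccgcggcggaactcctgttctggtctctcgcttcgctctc
Krt20: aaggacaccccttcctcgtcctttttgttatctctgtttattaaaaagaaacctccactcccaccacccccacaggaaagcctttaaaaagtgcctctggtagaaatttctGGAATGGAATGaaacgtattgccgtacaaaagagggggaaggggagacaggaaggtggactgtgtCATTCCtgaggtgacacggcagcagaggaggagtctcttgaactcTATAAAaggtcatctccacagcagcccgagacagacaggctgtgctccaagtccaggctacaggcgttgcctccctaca
TATAAA on either strand was in 2 of the 5 keratin promoters, Krt20 and Krt8, against 13.6% of all 32851 promoters. In Krt8 the match on the plus strand, from position -1, overlaps one on the minus strand, from -3. Both thus lie at the annotated start, while the Krt20 match begins at -29. GGAATG was in 1 of the 5, Krt20, where it occurred 3 times, a pair of them overlapping by 1 base, against 14.7% of all promoters. CCACCC, a core of the Klf family's motif, was in 3 of the 5 (Krt20, Krt8 and Krt18), against 31.5%. TTTATNG, read here as a core of the Cdx motif, was in Krt20 alone, where it overlaps the TATAAA match, against 10.9%. A match is a description of the letters and shows neither a binding site nor a cause of any level below.

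After filtering, 1560 barcodes of the Ptger4-OFF library and 877 of the Ptger4-ON library remained. Cells with more UMIs (unique molecular identifiers, the counted molecules) of Epcam, Cldn7 and Cldn3 than of Col1a1, Col1a2 and Col3a1 were taken as epithelial, a gate that uses no keratin. It gave 1197 Ptger4-OFF and 579 Ptger4-ON epithelial cells, with 7601077 and 5548816 UMIs. It also gave 361 Ptger4-OFF and 279 Ptger4-ON fibroblasts. Barcodes with over 50000 UMIs carried 4.97% of epithelial UMIs in Ptger4-OFF and 22.8% in Ptger4-ON. Markers of other cell types were low in the epithelial cells of both libraries: the 5 fibroblast markers summed to 28.8 CPM in Ptger4-OFF and 32.8 CPM in Ptger4-ON (counts per 1000000 UMIs), the 4 mesothelial markers to 7.50 and 3.60 CPM with Wt1 at 0 in both, and the 3 squamous or basal markers analysed to 1.18 and 13.5 CPM with Krt5 at 0 in Ptger4-OFF and Krt14 at 0 in Ptger4-ON. Krt5 and Krt14 had at most 2 UMIs in either library, so most of the squamous or basal sum was Dsg3. The 4 leukocyte markers analysed summed to 0.526 CPM in Ptger4-OFF and 1.80 CPM in Ptger4-ON, and the 1 endothelial marker analysed was at 0 in both. The libraries shared 1 barcode sequence. Within libraries, 17 pairs of Ptger4-OFF and 61 pairs of Ptger4-ON barcodes were 1 base apart. The barcode with fewer UMIs of such pairs made up 15 Ptger4-OFF and 52 Ptger4-ON epithelial cells. Whether these were separate cells was not tested.

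All 6 keratins had a lower level in Ptger4-OFF than in Ptger4-ON epithelium, Krt23 and Krt7 most and Krt20 least. Together they took 0.529% of epithelial UMIs in Ptger4-OFF and 0.891% in Ptger4-ON, a ratio of 0.593 (95% interval 0.585 to 0.601). In fibroblasts they took 0.0121% and 0.0131%. The type II gene Krt8, the main partner of Krt18, had 1545 CPM (11745 UMIs) in Ptger4-OFF and 2628 CPM (14582 UMIs) in Ptger4-ON, a ratio of 0.588 (0.574 to 0.602). Krt7 had 388 CPM in Ptger4-OFF and 855 CPM in Ptger4-ON, a ratio of 0.453 (0.433 to 0.475).

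Among the type I genes, Krt18 had 1370 CPM in Ptger4-OFF and 2208 CPM in Ptger4-ON, a ratio of 0.621 (0.604 to 0.637). Krt19, which also pairs with Krt8, had 1593 and 2625 CPM in Ptger4-OFF and Ptger4-ON, a ratio of 0.607 (0.592 to 0.622). These 3 genes of the basic set thus lay within a narrow band of ratios. Krt23 had 44.2 CPM (336 UMIs) in Ptger4-OFF and 222 CPM (1231 UMIs) in Ptger4-ON, a ratio of 0.199 (0.176 to 0.225), the smallest of the 6. Krt20 had 346 CPM (2630 UMIs) in Ptger4-OFF and 376 CPM (2089 UMIs) in Ptger4-ON, a ratio of 0.919 (0.867 to 0.974). Its direction rested on a few cells: without the cell of each library that held most Krt20 it had 323 CPM in Ptger4-OFF and 321 CPM in Ptger4-ON, and without the cells that led any of the 6 keratins its log2 ratio was 0.13, against -0.12 with all cells.

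A difference of 1.5-fold or more toward lower in Ptger4-OFF was found for 5 of the 6 keratins, all but Krt20, while 10.7% of the 11618 genes measured in epithelium (at least 20 UMIs over both libraries) passed the same mark. In the opposite direction the mark was passed by 0 keratins and by 7.29% of genes. The median log2 ratio of the 6 was -0.74, and that of all genes was -0.04. Of all genes, 0.396% had a lower ratio than Krt23, 3.26% a lower one than Krt7, between 6.89% and 8.39% a lower one than Krt8, Krt19 and Krt18, and 40.4% a lower one than Krt20. In fibroblasts the keratins had between 1.09 CPM (Krt23) and 38.1 CPM (Krt19) in Ptger4-OFF, and between 2.29 CPM (Krt23) and 49.7 CPM (Krt19) in Ptger4-ON. Those levels were 1.57% to 2.53% of the epithelial ones in Ptger4-OFF and 0.978% to 1.97% in Ptger4-ON. None of the 5 keratins measured there passed the 1.5-fold mark, against 7.59% of genes lower and 6.41% higher.

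Since an epithelial sum cannot tell a change in cells from a change in RNA per cell, the epithelial cells were divided into states by joint clustering with all keratin genes left out. A state was named from marker lists, or by 2 of its leading genes where no list applied. Clu and Ly6a cells, the injury-associated or fetal-like state whose leading genes included Clu, Msln, Anxa8 and F3, numbered 61 (5.10% of epithelial cells) in Ptger4-OFF and 128 (22.1%) in Ptger4-ON. Dividing Top2a cells numbered 387 in Ptger4-OFF and 155 in Ptger4-ON. Enterocyte-like Fabp1 cells, led by Cyp3a11, Lct and Apoa4, numbered 108 and 22. Lyz1 and Muc2 cells, with Paneth and goblet markers, numbered 67 and 69. A pair of states was named by leading genes, Ifitm3 and Aqp4 (393 Ptger4-OFF and 101 Ptger4-ON cells) and Cd44 and Cep55 (31 and 78). These 6 states were compared. Enteroendocrine cells (17 and 1) were too few to compare. The depth per cell differed by state: the median was 4410 UMIs in Ptger4-OFF and 6310.5 UMIs in Ptger4-ON Clu and Ly6a cells, and 8701 and 3970.5 UMIs in the Cd44 and Cep55 state.

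Clu and Ly6a cells were the keratin-rich state in both libraries. The 6 keratins took 2.04% of their UMIs in Ptger4-OFF and 1.71% in Ptger4-ON, against 0.309% and 0.398% in Top2a cells. They took 0.688% and 0.647% in the Cd44 and Cep55 state, and 0.523% and 1.16% in Fabp1 cells. Cell by cell, the keratin share in Clu and Ly6a cells had a median of 2.05% in Ptger4-OFF (lowest 0.146%, highest 4.56%) and 1.73% in Ptger4-ON (lowest 0.339%, highest 4.71%), so the libraries overlapped broadly. In Fabp1 cells the median share was 0.371% in Ptger4-OFF and 1.15% in Ptger4-ON. In Lyz1 and Muc2 cells it was 0.399% and 0.408%, nearly the same in both libraries.

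**Figure D1:**
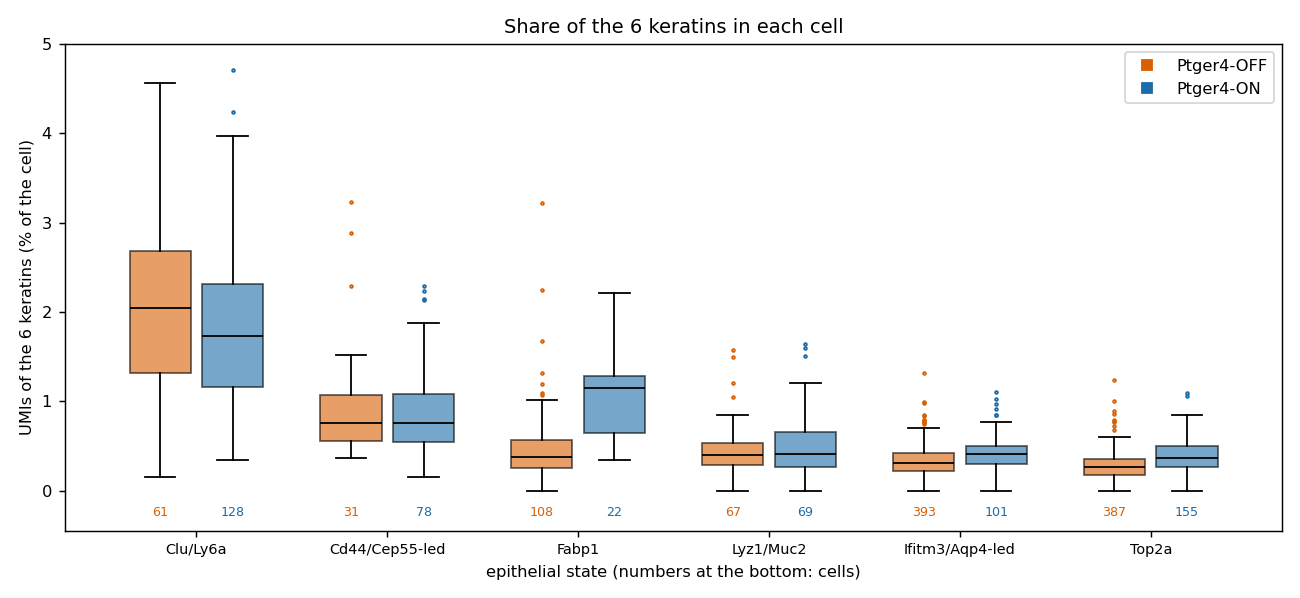
Percent of each cell's UMIs that came from the 6 keratins (vertical axis), by epithelial state, with Ptger4-OFF left of Ptger4-ON; boxes span the quartiles with the median as a line, whiskers reach 1.5 times the interquartile range, and points are cells beyond. The Clu and Ly6a medians, 2.05% in Ptger4-OFF and 1.73% in Ptger4-ON, are the highest in each library.

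Every keratin but 1 had its highest level among the 6 states in Clu and Ly6a cells, in both libraries, with an interval that did not overlap the next state's. The exception was Krt20 in Ptger4-ON, which was higher in Fabp1 cells (2938 CPM) than in Clu and Ly6a cells (781 CPM). Relative to Top2a cells of the same library, Clu and Ly6a cells had 8.39 times the Krt7 level in Ptger4-OFF and 6.44 times in Ptger4-ON. For Krt23 the multiples were 40.7 and 30.9, and for Krt20 90.2 and 38.3. For Krt8, Krt18 and Krt19 they lay between 5.26 and 5.82 in Ptger4-OFF and between 3.59 and 4.06 in Ptger4-ON. At the low end, Top2a cells had the lowest level of Krt7 and Krt8 in both libraries, with intervals overlapping those of the Ifitm3 and Aqp4 state. Krt18 was instead lowest in Fabp1 cells, at 630 CPM in Ptger4-OFF and 1013 CPM in Ptger4-ON; in Ptger4-ON its interval overlapped that of Top2a cells.

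**Figure D2:**
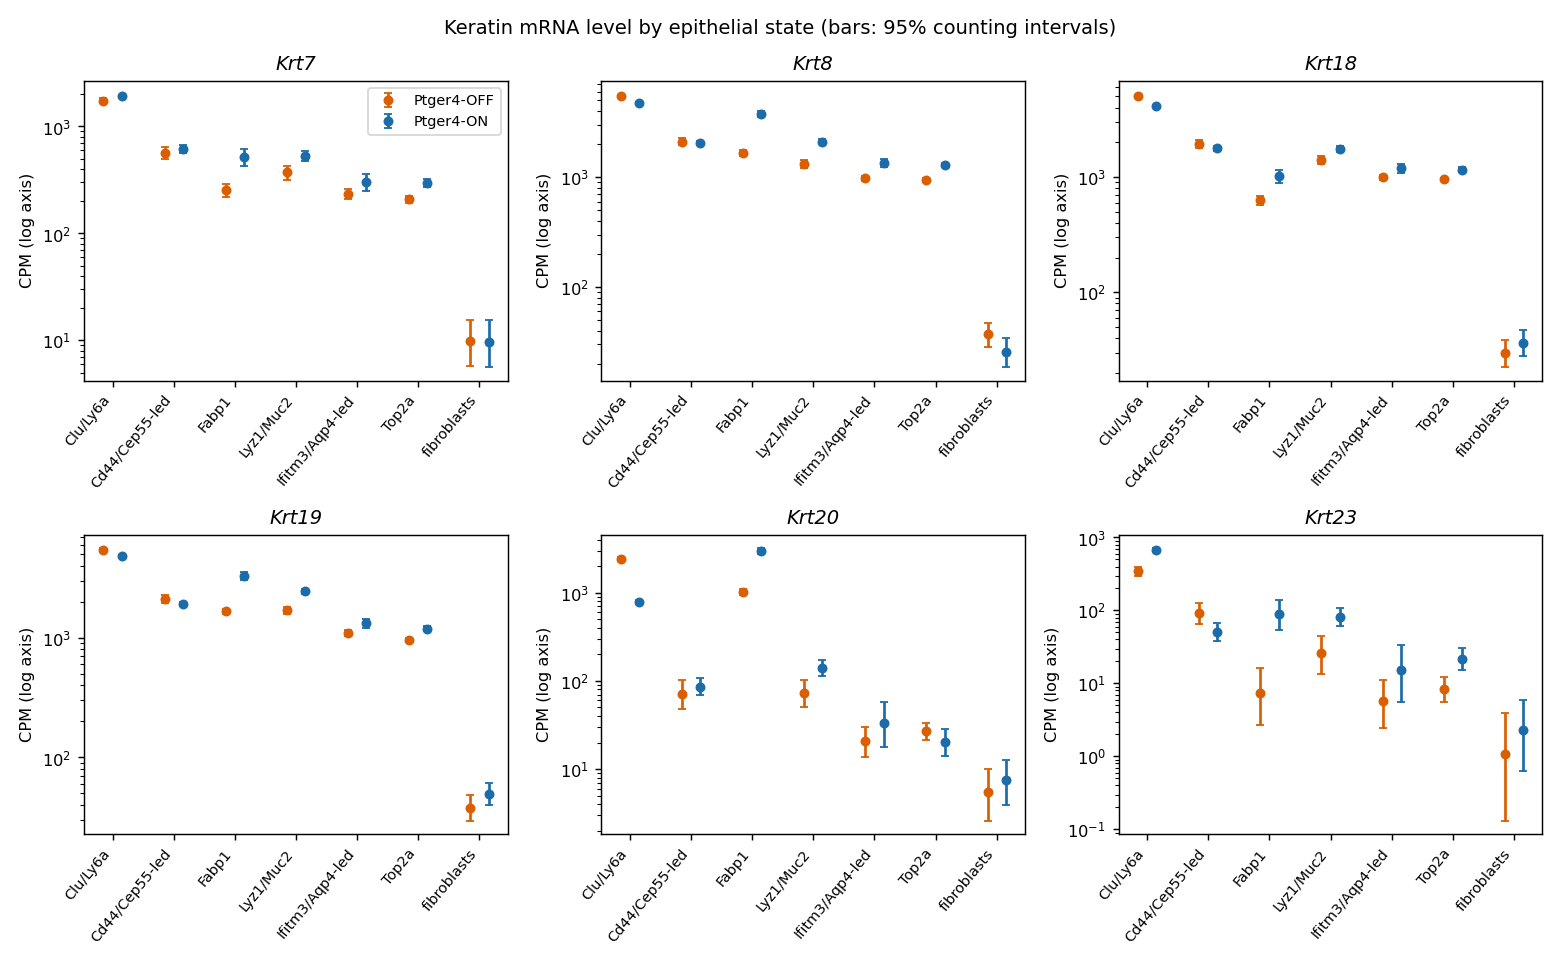
Level of each keratin (CPM, log axis, 1 panel for each gene) in the 6 epithelial states and in fibroblasts, with Ptger4-OFF and Ptger4-ON points and 95% counting intervals. Clu and Ly6a cells are highest in every panel and library except Krt20 in Ptger4-ON, where Fabp1 cells are highest at 2938 CPM.

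The keratin UMIs of the epithelium were therefore spread unlike its UMIs as a whole. Clu and Ly6a cells held 8.33% of epithelial UMIs in Ptger4-OFF and 28.5% in Ptger4-ON. They held 29.5% of Krt8 UMIs in Ptger4-OFF and 51.4% in Ptger4-ON, and 37.6% and 63.9% of Krt7 UMIs. Of Krt23 UMIs they held 64.9% in Ptger4-OFF and 85.9% in Ptger4-ON. Of Krt20 UMIs they held 58.6% and 59.2%, with a further 31.2% and 29.7% in Fabp1 cells. Krt20 was thus largely carried by these 2 states in both libraries.

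**Figure D3:**
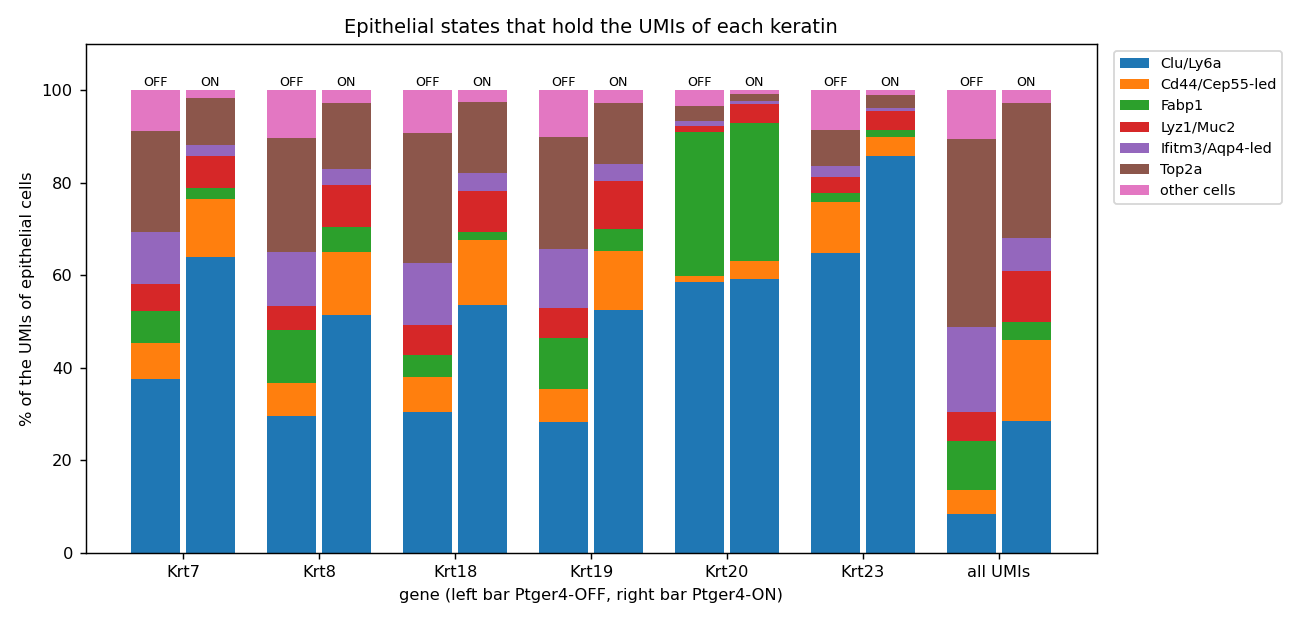
Percent of each keratin's epithelial UMIs found in each state (stacked bars), with all UMIs for comparison, enteroendocrine and other remaining cells as other cells, and Ptger4-OFF left of Ptger4-ON. The Clu and Ly6a part of Krt23 is 64.9% in Ptger4-OFF and 85.9% in Ptger4-ON, against 8.33% and 28.5% of all UMIs.

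With the mix of states held the same in both libraries, over all clusters with at least 20 cells in each, most of the difference in the basic set was smaller. Krt18 had 1779 CPM in Ptger4-OFF and 1837 CPM in Ptger4-ON at equal state weights, a ratio of 0.969 (0.941 to 0.998), where the plain sum gave 0.621. Krt8 and Krt19 had ratios of 0.850 (0.827 to 0.874) and 0.883 (0.859 to 0.907), and Krt7 0.813 (0.773 to 0.856). Krt23 stayed lower in Ptger4-OFF, at 77.1 CPM against 148 CPM in Ptger4-ON, a ratio of 0.522 (0.459 to 0.592). Krt20 was higher in Ptger4-OFF on this scale, at 523 CPM against 401 CPM in Ptger4-ON, a ratio of 1.30 (1.22 to 1.39). The median log2 ratio of the 6 at equal weights was -0.21. With states at resolution 1, which left no comparable Fabp1 state, the log2 ratio of Krt20 was 1.45, against 0.38 here.

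Inside the Clu and Ly6a state the basic filament genes were slightly higher in Ptger4-OFF, Krt20 was several times higher and Krt23 was lower. Krt8 had 5463 CPM in Ptger4-OFF and 4742 CPM in Ptger4-ON, a ratio of 1.15 (1.11 to 1.20). Krt18 had 5010 and 4151 CPM in Ptger4-OFF and Ptger4-ON, a ratio of 1.21 (1.16 to 1.26), and Krt19 had 5402 and 4835 CPM, a ratio of 1.12 (1.07 to 1.16). Krt7 had 1749 CPM in Ptger4-OFF and 1915 CPM in Ptger4-ON, a ratio of 0.913 (0.852 to 0.979). For Krt7 and Krt19 the direction was not the same under every way of counting: without barcodes over 50000 UMIs the log2 ratio of Krt7 was 0.12, and with equal weight for each cell that of Krt19 was -0.019. One keratin was 1.5-fold or more lower (Krt23) and 1 was higher (Krt20), against 18% of 8865 genes lower and 9.64% higher. The median log2 ratio of the 6 was 0.18, and that of all genes in this state was -0.10. The squamous or basal markers had 7 UMIs in Ptger4-OFF and 67 in Ptger4-ON Clu and Ly6a cells, nearly all of the gene Dsg3. The basal keratin Krt14 was at 0 in both libraries there, and Krt5 was at 0 in Ptger4-OFF and 1.26 CPM in Ptger4-ON. The part of these markers in the keratin values was not tested.

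Krt20 in Clu and Ly6a cells had 2434 CPM (1542 UMIs) in Ptger4-OFF and 781 CPM (1236 UMIs) in Ptger4-ON, a ratio of 3.12 (2.89 to 3.36). The median cell had 18.2 Krt20 UMIs per 10000 in Ptger4-OFF and 5.37 in Ptger4-ON. Without thinning to equal depth, Krt20 UMIs were found in 55 of 61 Ptger4-OFF cells and in 104 of 128 Ptger4-ON cells, most cells of both libraries. The enterocyte markers of the Fabp1 list moved with it: they summed to 1882 CPM in Ptger4-OFF and 212 CPM in Ptger4-ON Clu and Ly6a cells. In the 40 Ptger4-OFF and 116 Ptger4-ON cells with at most 0.05% of their UMIs from that list, a limit chosen after the values were seen, Krt20 had 2188 CPM in Ptger4-OFF and 760 CPM in Ptger4-ON, a ratio of 2.88 (2.62 to 3.16). In these cells the difference in Krt20 was nearly as large as in the whole state.

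In Fabp1 cells the order was the other way round. Krt20 had 1018 CPM (821 UMIs) in Ptger4-OFF and 2938 CPM (621 UMIs) in Ptger4-ON, a ratio of 0.346 (0.312 to 0.385). One Ptger4-ON cell of 92081 UMIs held 335 of the 621 UMIs, and without the leading cell of each library the ratio was 0.390. The median cell had 7.67 Krt20 UMIs per 10000 in Ptger4-OFF and 16.8 in Ptger4-ON. After thinning each cell to 1000 UMIs, 47.1% of Ptger4-OFF and 47.6% of Ptger4-ON Fabp1 cells had a Krt20 UMI. After thinning to 500 UMIs the shares were 31.5% (34 of 108 cells) in Ptger4-OFF and 54.5% (12 of 22) in Ptger4-ON, so no order of the shares was read from so few cells. Markers of other states differed here too: the Lyz1 and Muc2 list summed to 835 CPM in Ptger4-OFF and 7344 CPM in Ptger4-ON, and the Clu and Ly6a list to 1023 and 2830 CPM. The Ptger4-ON sum of the Lyz1 and Muc2 list rested on few cells. The median cell had 0.0120% of its UMIs from that list in Ptger4-OFF and 0.0270% in Ptger4-ON, and the highest 1.86% and 1.60%. Without cells over 0.5% of the Lyz1 and Muc2 list, which left 105 and 19 cells, Krt20 had 921 CPM in Ptger4-OFF and 2364 CPM in Ptger4-ON. This limit also left out the Ptger4-ON cell that led Krt20, so 276 of the 621 UMIs remained. The part of the Clu and Ly6a list in these differences was not tested.

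The other keratins were lower in Ptger4-OFF Fabp1 cells as well. Krt8 had 1663 CPM in Ptger4-OFF and 3771 CPM in Ptger4-ON, a ratio of 0.441 (0.404 to 0.482). Krt19 had 1658 and 3289 CPM in Ptger4-OFF and Ptger4-ON, a ratio of 0.504 (0.460 to 0.553), and Krt7 254 and 516 CPM, a ratio of 0.493 (0.389 to 0.627). Krt18 had 630 and 1013 CPM in Ptger4-OFF and Ptger4-ON, a ratio of 0.622 (0.529 to 0.733), but with states taken from marker UMIs its log2 ratio was -0.011. Krt23 rested on 6 UMIs in 3 Ptger4-OFF cells and 19 UMIs in 4 Ptger4-ON cells. All 6 keratins passed the 1.5-fold mark toward lower, against 17.5% of 6068 genes, and 0 toward higher, against 20.9%. With states taken from marker UMIs, Krt7 (log2 ratio -0.44) and Krt18 did not pass it. The same Ptger4-ON cell that led Krt20 held between 44.0% and 48.1% of the Krt7, Krt8, Krt18 and Krt19 UMIs of its 22-cell state, and without the leading cells the ratios of these 4 genes lay between 0.446 and 0.522.

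In dividing Top2a cells the basic set and Krt7 were lower in Ptger4-OFF by less than 1.5-fold. Krt8 had 939 CPM in Ptger4-OFF and 1290.2 CPM in Ptger4-ON, a ratio of 0.728, and the ratios of Krt18, Krt19 and Krt7 were 0.823, 0.801 and 0.701. Krt23, at 8.45 CPM in Ptger4-OFF and 21.6 CPM in Ptger4-ON, was the 1 keratin past the mark, against 7.05% of 9852 genes lower and 6.15% higher. It rested on 26 and 35 UMIs, and with states at resolution 1 its log2 ratio was -0.50, against -1.35 here. With equal weight for each cell Krt7 and Krt8 passed the mark too, with log2 ratios of -0.65 and -0.59. Krt20 was low, at 27.0 CPM in Ptger4-OFF and 20.4 CPM in Ptger4-ON, and its ratio of 1.32 had an interval of 0.874 to 2.04. In Lyz1 and Muc2 cells Krt8 (ratio 0.626), Krt20 (0.519) and Krt23 (0.313) passed the mark, 3 of 6 keratins against 10.9% of 6902 genes lower and 11.4% higher. There 1 Ptger4-ON cell of 130922 UMIs held 65 of the 87 Krt20 UMIs, and without the cells that led any keratin the log2 ratio of Krt20 was 0.11. The Krt8 ratio was 0.673, short of the mark, without the cell of each library that held most Krt8, and its log2 ratio was -0.35 with states from marker UMIs. Of the 3 genes, Krt23 alone stayed past the mark under the 7 alternatives run. It rested on 12 UMIs in 8 Ptger4-OFF cells and 51 UMIs in 18 Ptger4-ON cells. The Ptger4-ON cell of 130922 UMIs held 24 of those 51.

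The states named by their leading genes had different patterns. In the Ifitm3 and Aqp4 state Krt7, Krt8, Krt18 and Krt19 had ratios of 0.729 to 0.834, and 1 of 5 measured keratins, Krt20 with 29 and 13 UMIs, passed it, against 9.99% of genes lower and 11.7% higher. Its ratio of 0.619 was 0.736, short of the mark, without the leading cell of each library. In the Cd44 and Cep55 state the same 4 genes had ratios of 0.923 to 1.10, so the libraries were close. Only Krt23 passed the mark there, toward higher, at 91.5 CPM (37 UMIs) in Ptger4-OFF and 51.3 CPM (50 UMIs) in Ptger4-ON, against 10.4% of genes lower and 9.46% higher. With equal weight for each cell its log2 ratio was -0.34, so that direction did not hold.

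Krt23 in Clu and Ly6a cells had 344 CPM (218 UMIs) in Ptger4-OFF and 668 CPM (1057 UMIs) in Ptger4-ON, a ratio of 0.515 (0.443 to 0.596). It was seen in 43 of 61 Ptger4-OFF and 105 of 128 Ptger4-ON cells, with a median of 2.65 and 6.13 UMIs per 10000. In the cells with at most 0.05% of the Fabp1 list, Krt23 had 482 CPM in Ptger4-OFF and 745 CPM in Ptger4-ON, a ratio of 0.647 (0.550 to 0.759). Within the same state, then, Krt20 and Krt23 stood in opposite directions.

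**Figure D4:**
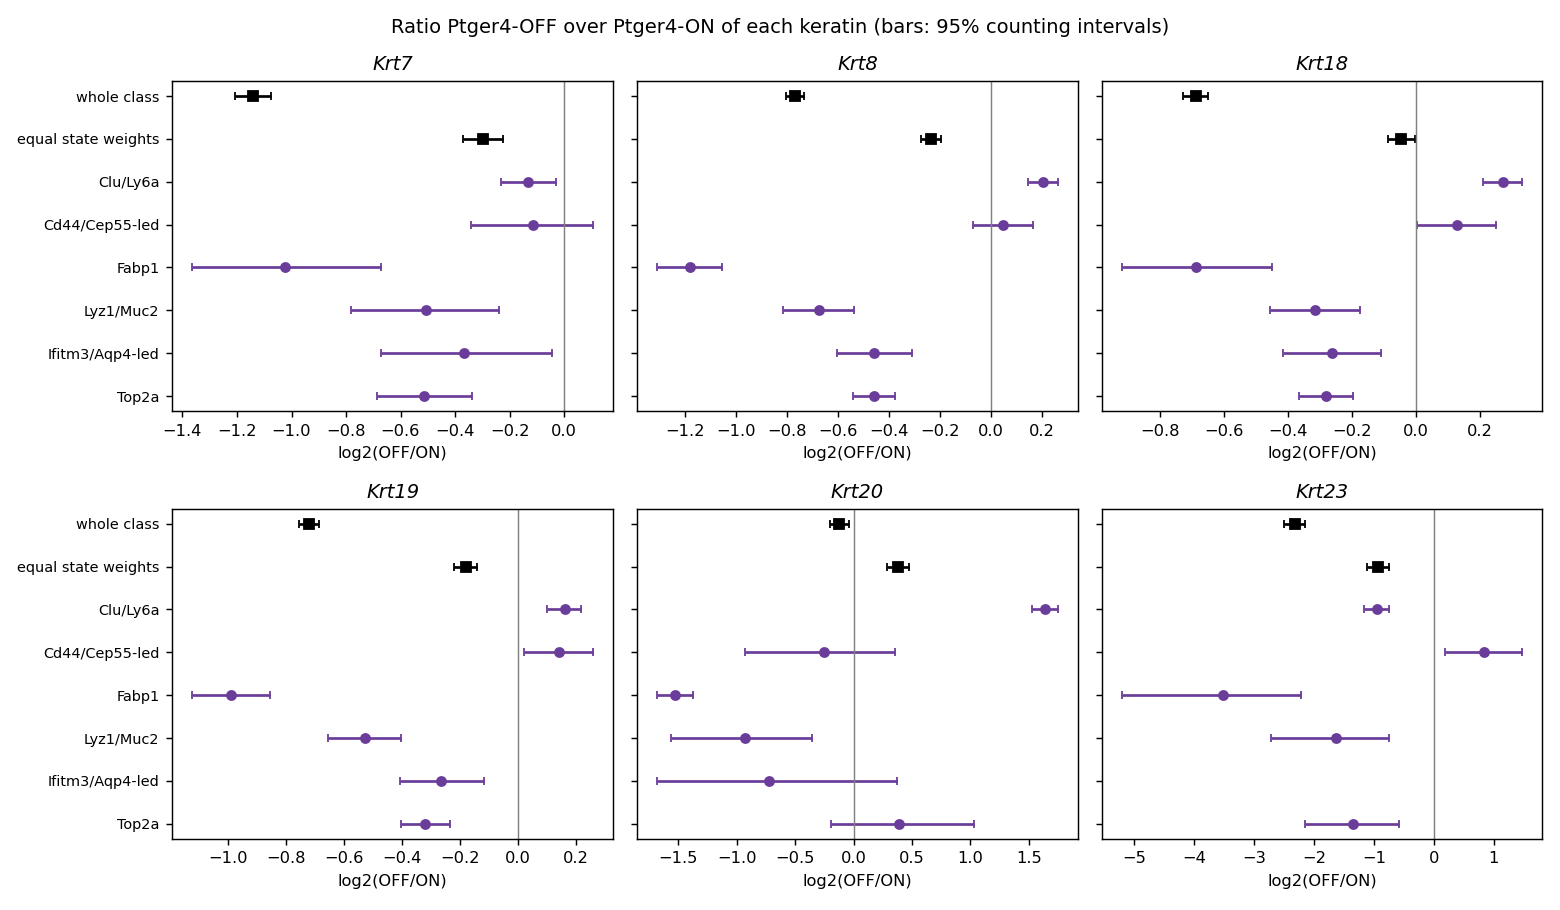
Log2 ratio of Ptger4-OFF over Ptger4-ON for each keratin (1 panel each) in the whole epithelium, at equal state weights and in the 6 states, with 95% counting intervals; 0 means equal levels, and Krt23 in the Ifitm3 and Aqp4 state is left out for having under 20 UMIs. Krt20 lies above 0 in Clu and Ly6a cells (ratio 3.12) and below it in Fabp1 cells (0.346).

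In the epithelium as a whole, the proportion between partner chains was steadier than their levels. Krt7 and Krt8 together had 0.576 UMIs for each UMI of the 4 type I genes in Ptger4-OFF (0.565 to 0.588) and 0.641 in Ptger4-ON (0.630 to 0.653). In Clu and Ly6a cells this proportion was 0.547 in Ptger4-OFF and 0.638 in Ptger4-ON. There it was no steadier than the levels of Krt7, Krt8 and Krt19, whose ratios were 0.913, 1.15 and 1.12. Krt8 had 1.13 UMIs for each Krt18 UMI in Ptger4-OFF epithelium and 1.19 in Ptger4-ON epithelium. In Lyz1 and Muc2 cells it had 0.930 in Ptger4-OFF and 1.19 in Ptger4-ON. Fabp1 cells stood apart, with 2.64 Krt8 UMIs for each Krt18 UMI in Ptger4-OFF (2.38 to 2.93) and 3.72 in Ptger4-ON (3.20 to 4.35). These are ratios of UMIs not corrected for gene length, and are meant for comparing states, not the 2 genes.

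The share of epithelial cells with a UMI was compared after thinning to 1000 UMIs, which 1149 Ptger4-OFF and 529 Ptger4-ON cells reached (48 and 50 did not). Krt8 was seen in 62.1% of Ptger4-OFF and 77.9% of Ptger4-ON cells, against 4.86% and 3.91% of fibroblasts. Krt18 was seen in 60.5% and 74.5% of Ptger4-OFF and Ptger4-ON cells, and Krt19 in 63.7% and 73.5%. Krt7 was seen in 23.8% of Ptger4-OFF cells (21.3% to 26.3%, Clopper-Pearson) and 42.0% of Ptger4-ON cells (37.7% to 46.3%). Krt20 was seen in 11.7% and 16.1%, and Krt23 in 3.13% (2.20% to 4.31%) of Ptger4-OFF and 12.9% (10.1% to 16.0%) of Ptger4-ON cells. All 6 shares were lower in Ptger4-OFF, by a median of 11.9 percentage points. In fibroblasts, whose libraries included 350 and 256 cells of that depth, the Krt7, Krt20 and Krt23 shares were at most 0.571% in Ptger4-OFF and 1.56% in Ptger4-ON. Unthinned, Krt8 was seen in 90.1% of Ptger4-OFF and 94.0% of Ptger4-ON epithelial cells, and Krt23 in 9.52% and 33.2%.

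Among Clu and Ly6a cells at that depth, 60 in Ptger4-OFF and 121 in Ptger4-ON, Krt20 was seen in 76.7% of Ptger4-OFF cells (64.0% to 86.6%) and 47.1% of Ptger4-ON cells (38.0% to 56.4%). Krt23 was seen in 31.7% and 44.6%, and Krt7 in 58.3% and 76.9%. For Krt20, Krt23 and Krt7 the order of the shares was the same as that of the levels. For the basic set it was not. Krt8 and Krt18 were each seen in 93.3% of Ptger4-OFF and 97.5% of Ptger4-ON cells, and Krt19 in 93.3% and 94.2%. Their levels in this state were slightly higher in Ptger4-OFF. Across all thinned epithelial cells, a Krt23 UMI was found in 14.1% of Krt20-positive Ptger4-OFF cells and in 25.9% of Krt20-positive Ptger4-ON cells. In cells without a Krt20 UMI the shares were 1.68% in Ptger4-OFF and 10.4% in Ptger4-ON.

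Across cells of at least 1000 UMIs, the level of each keratin was correlated with every other one in both libraries (Pearson, log of 1 plus UMIs per 10000). The 15 pairs ranged from 0.170 (Krt18 and Krt20) to 0.484 (Krt8 and Krt19) over 1149 Ptger4-OFF cells, and reached 0.661 for Krt8 and Krt19 over 529 Ptger4-ON cells. Cells of a library share its preparation and differ in depth, and the correlation of a keratin with log depth was 0.060 to 0.234 in Ptger4-OFF and 0.070 to 0.224 in Ptger4-ON. Of 7619 candidate genes, the most like Krt8 was Krt19, and the most like Krt7 and Krt18 was S100a6, a calcium-binding protein gene (0.415 and 0.559 with Krt7 in Ptger4-OFF and Ptger4-ON). Those most like Krt23 were F3, the tissue factor gene (0.562 and 0.694), Anxa1, Msln, Cwh43 and Clu. S100a6, Anxa1, Msln and Clu are on the marker list that named the Clu and Ly6a state. Krt20 had a partly different set, AA467197 (0.560 and 0.631), Anxa10, Gsta1, Cyp3a13 and Capg. Gsta1 and Cyp3a13 are genes of xenobiotic metabolism. Anxa10 was also among the 5 genes most like Krt7 and those most like Krt8.

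Of the 26 other keratin genes listed, 6 had at least 20 UMIs over both libraries in epithelium, 3 of them lower and 3 higher in Ptger4-OFF. Krt10, a keratin of stratified epithelium, had 17.8 CPM in Ptger4-OFF and 12.3 CPM in Ptger4-ON, close to the fibroblast levels of 14.7 and 11.4 CPM. Krt15 had 81 UMIs in Ptger4-OFF and 42 in Ptger4-ON, Krt12 19 and 14, and Krt78 10 and 18. Krt6a, known from activated keratinocytes, had 33 UMIs in 3 Ptger4-OFF cells, 31 of them in 1 cell, and 14 UMIs in 4 Ptger4-ON cells, all of them Clu and Ly6a cells. Krt27 had 0 UMIs in Ptger4-OFF and 31 UMIs in 9 Ptger4-ON cells, again all Clu and Ly6a cells. Krt6a and Krt27 were thus seen in few cells and in 1 state.

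Genes of the filament's attachments and partners were lower in Ptger4-OFF for most members, with medians nearer 0 than that of the keratins. Of 12 measured desmosome and linker genes, 10 were lower and 2 higher (median log2 ratio -0.35, all genes -0.04), and 4 passed 1.5-fold toward lower. Of all genes, 54.4% were lower and 10.7% passed 1.5-fold toward lower. Ppl, for periplakin, had 20.7 CPM in Ptger4-OFF and 40.7 CPM in Ptger4-ON. Plec, for plectin, had 68.0 and 103 CPM in Ptger4-OFF and Ptger4-ON, Jup 51.8 and 79.1 CPM, and Evpl 26 and 37 UMIs. Of 5 hemidesmosome genes 4 were lower against 54.4% of all genes (median -0.21), with Itgb4, an integrin subunit, at 36.2 CPM in Ptger4-OFF and 70.1 CPM in Ptger4-ON. In Clu and Ly6a cells Plec had 234 CPM in Ptger4-OFF and 203 CPM in Ptger4-ON, and Itgb4 118 and 116 CPM, so neither was lower in Ptger4-OFF inside that state. Ppl, at 44.2 CPM in Ptger4-OFF and 73.3 CPM in Ptger4-ON, Jup, at 97.9 and 115 CPM, and Evpl, at 6.31 and 11.4 CPM, were lower there too.

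Of 13 keratin-binding protein genes 11 were lower in Ptger4-OFF (median -0.52), and 5 passed 1.5-fold, against 54.4% of all genes lower and 10.7% past the mark. These were the 14-3-3 genes Sfn (115 CPM in Ptger4-OFF and 189 CPM in Ptger4-ON), Ywhaz (274 and 419 CPM) and Ywhag (54.6 and 86.1 CPM), with Fbf1 (46 and 59 UMIs) and the small heat shock gene Hspb1 (8 and 35 UMIs). Of 5 other intermediate filament genes 4 were lower against 54.4% of all genes (median -0.13), and 1 passed 1.5-fold against 10.7%. This was Lmna, for nuclear lamin A/C, which had 129 CPM in Ptger4-OFF and 252 CPM in Ptger4-ON. Vim, the fibroblast filament gene, had 10.0 CPM in Ptger4-OFF and 12.4 CPM in Ptger4-ON epithelium. Of 12 transcription factor genes tied to simple keratins, 9 were lower and 3 higher, against 54.4% of all genes lower (median -0.18). Jun was among the higher ones, at 846 CPM in Ptger4-OFF and 594 CPM in Ptger4-ON. Grhl3 (7 and 17 UMIs) and Fosl1 (46 and 65 UMIs) were the 2 past 1.5-fold toward lower, against 10.7% of all genes.

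**Figure D5:**
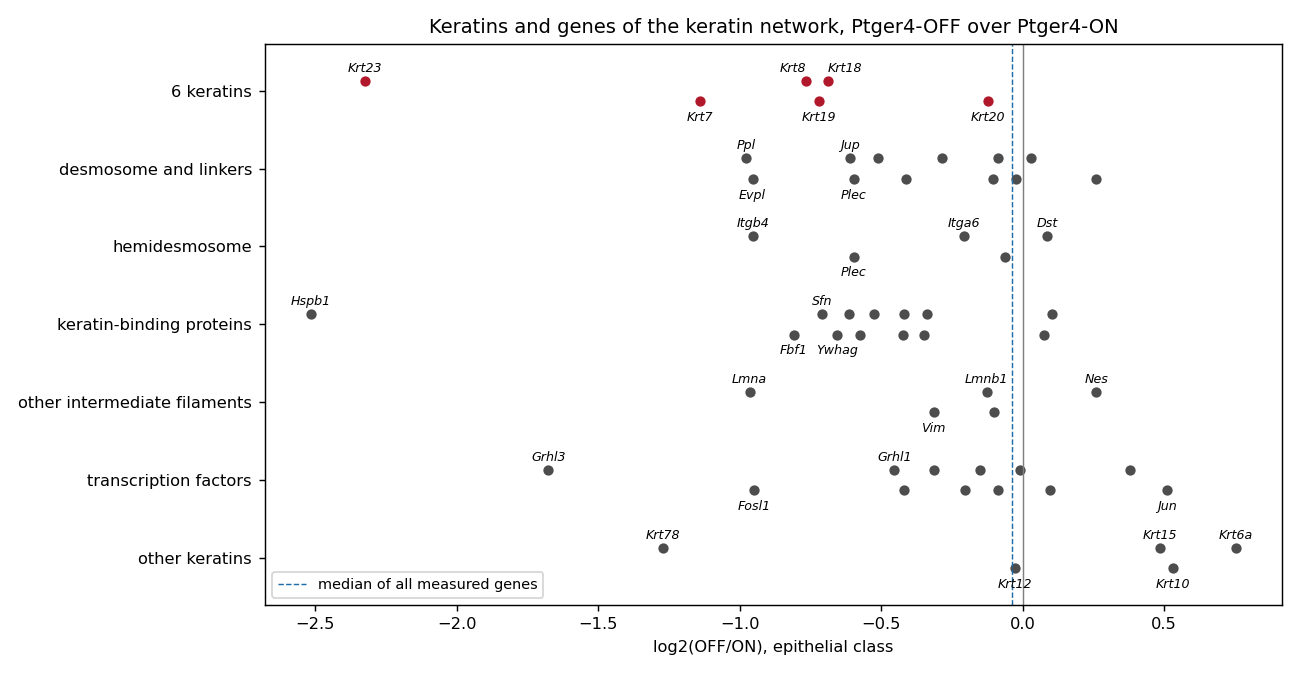
Log2 ratio of Ptger4-OFF over Ptger4-ON in the whole epithelium for the 6 keratins and for the measured members of 6 lists (1 point for each gene; Krt27, at 0 UMIs in Ptger4-OFF, is not drawn); the dashed line is the median of all genes, -0.04. The keratins have a median of -0.74, and the list medians run from -0.52 to 0.23.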

How the data were processed

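Drop-seq measured polyA RNA in 1 pooled library per condition. The authors deposited raw counts, whole numbers for each gene in each barcode. The files do not say that they are UMIs; this is taken from Drop-seq, the method per the labels. STAR 2.6 and build mm10 are named per the submitters' processing notes, and neither the counting tool nor its annotation or strand setting is given in the sources used here. Deposited totals were 9490205 counts in 1599 barcodes (Ptger4-OFF) and 7408303 in 908 (Ptger4-ON).

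Barcodes under 300 genes or over 20% mitochondrial UMIs were dropped, which left 1564 and 882, and Scrublet (scanpy 1.11.5) removed 4 and 5 doublets. Cells with equal or no gate UMIs (2 and 19) were left out. States came from joint Leiden clustering (igraph 0.11.9, resolution 0.5, 30 principal components of 2000 variable genes, 15 neighbours) of counts scaled to 10000, keratins left out. A state took a list's name where at least 3 of its 50 leading genes (100 CPM or more) were on the list and no other list had more of the top 10. It was compared where both libraries had 20 cells. One cluster is not reported here; its cells stayed in the class sums and the equal state weights. The clustering could place cells of unlike depth or ambient RNA together, and the names are rebuilt, not the submitters'.

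UMIs were summed by state and divided by the state's total (CPM). CPM has an exact Poisson and each ratio an exact conditional binomial 95% interval (scipy 1.17.1, numpy 2.4.6, pandas 2.3.3, Python 3.11.15; figures by matplotlib 3.10.9). Log2 ratios used a pseudocount of 0.5 and genes with 20 UMIs over both libraries. Equal state weights were the states' shares of UMIs over both libraries. The ratio intervals were tried on simulated Poisson counts drawn from the pooled epithelial sums, the model that they assume. That trial cannot show how the intervals hold where few cells carry many of the UMIs. Alternatives included TMM factors (edgeR 4.0.16, R 4.3.3), median-of-ratios factors, other cell and gene filters, other states and leaving out deep barcodes. The members and lists were chosen with earlier results of these data known. Named genes were the 6 keratins, other keratins with 20 UMIs, up to 4 genes of each list with the largest log2 ratio, and the 5 genes most correlated with each keratin; Ywhaz was added after its value was seen.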

Additional observations from a re-analysis of the deposited data

Results flagged for a closer look

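For 5 keratins the Ptger4-OFF over Ptger4-ON ratio stood on opposite sides of 1 in different epithelial states, with counting intervals apart from 1 on both sides. For Krt23 and Krt19 the side above 1 depended on the weighting: with equal weight for each cell the log2 ratio was -0.34 for Krt23 in the Cd44 and Cep55 state and -0.019 for Krt19 in Clu and Ly6a cells. These differences between states were not tested, since each condition has 1 library. Krt8 had a ratio of 1.15 in Clu and Ly6a cells and 0.441 in Fabp1 cells. Krt19 had 1.12 and 0.504 in the same states, and Krt18 had 1.21 and 0.622. Krt20 had 3.12 in Clu and Ly6a cells and 0.346 in Fabp1 cells. Krt23 had 1.78 in the Cd44 and Cep55 state, from 37 Ptger4-OFF and 50 Ptger4-ON UMIs, and 0.0827 in Fabp1 cells, from 6 and 19 UMIs.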

How the results depend on the processing

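With 1 library per condition no alternative adds a replicate, and depth limits Krt23 outside Clu and Ly6a cells and Krt20 in crypt-type states. No paired analysis was possible because each condition has 1 library and no replicate number. In the whole epithelium 5 keratins passed 1.5-fold under all 17 alternatives. Some of these could not change that count. A 200-gene minimum and keeping called doublets gave the same 1197 Ptger4-OFF and 579 Ptger4-ON cells. No keratin was under a 50-UMI minimum, and a pseudocount of 1 is small beside these sums. The median log2 ratio of -0.74 was -0.71 with TMM or median-of-ratios factors and without the leading cell of each keratin, and -0.89 with equal weight for each cell. Krt20 there was 0.16 without barcodes over 50000 UMIs and 0.13 without the leading cells. In Clu and Ly6a cells the median of 0.18 was 0.12 with states from marker UMIs, 0.24 without deep barcodes, 0.039 with equal cell weight, 0.30 with TMM and with median-of-ratios factors and 0.31 without cells over 0.05% of the Fabp1 list; Krt7 was 0.12 without deep barcodes and Krt19 -0.019 with equal cell weight. With equal cell weight the median was -0.54 (main -0.39) in Top2a cells, -0.15 (main -0.60) in Lyz1 and Muc2 cells and -0.041 (main 0.09) in the Cd44 and Cep55 state, where Krt23 was -0.34 and the median without leading cells 0.28. In Lyz1 and Muc2 cells the median was -0.34 with states from marker UMIs, Krt18 was 0.029 with equal cell weight, and Krt20 was 0.51 with states from marker UMIs, 0.48 with equal cell weight and 0.11 without deep barcodes or leading cells. At resolution 1 the median at equal state weights was -0.10 (main -0.21), and the Fabp1 state had too few Ptger4-ON cells for a value. The causes were not tested. Krt20 stayed above 0 in Clu and Ly6a cells (1.38 to 1.81) and below it in Fabp1 cells (-1.60 to -1.16) under the 8 and 7 alternatives run there. Of 363 single-gene values, 278 moved by less than counting error and 75 by more. The 278 include the values of the alternatives that could change nothing. The other 10 changed sign against a main value whose interval excluded equal levels. Sign changes from main values whose interval included equal levels are not in that 10, as for Krt8 and Krt20 in the Cd44 and Cep55 state. The alternatives on leading cells, on marker lists and on factors within states were chosen after seeing the data.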

Other observations

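The 17 enteroendocrine cells of the Ptger4-OFF library held 36 Krt20 UMIs, a level of 562 CPM (95% interval 394 to 778 CPM). These UMIs were found in 6 of the 17 cells. One cell of 4241 UMIs held 15 of them, and without it the level was 351 CPM. The Ptger4-ON library had 1 such cell, so no comparison was made.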
